A study of Mus musculus with 8 samples.

Results

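Brg1 and CHD4, the ATPases of different chromatin remodeling complexes, were compared site by site in 3134 cells, a mouse mammary epithelial line derived from a subclone of 904.13. The comparison used 4 of the 8 samples in the series: replicates 1 and 2 of chromatin immunoprecipitation sequencing with a monoclonal Brg1 antibody, and replicates 1 and 2 with a CHD4 antibody. All came from untreated cells of this 1 line, and nothing in the labels says that replicates were separate cultures, so measures of spread may be technical. The DNA inputs were not analysed here, so enrichment common to all libraries cannot be told apart from binding. The files list hotspots library by library; these are intervals enriched for sequence tags, each with a maximum tag density (called its height below). The lists held 115361 and 260036 Brg1 hotspots and 39797 and 293135 CHD4 hotspots, and tag totals are unknown from them. Hotspots of the 2 libraries of an antibody were merged where they shared at least 1 bp, and a merged region with a hotspot of both libraries is called a site. This gave 51805 Brg1 sites and 30521 CHD4 sites on mm9. No gene is named, and the cell type was not checked at marker genes, because an annotation of mm9 was not used here.

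Brg1 is a catalytic subunit of the SWI/SNF (BAF) complexes, which slide and evict nucleosomes and are best known for opening enhancers and promoters. CHD4 is the main ATPase of NuRD, which couples nucleosome remodeling to histone deacetylases and is often described as a repressor, although it is also found at active enhancers. Both complexes are recruited largely through transcription factors and histone marks. Whether they occupy one element together, lie side by side or divide the genome between them is the question that a comparison of their sites addresses. Snf2h, the ATPase of ISWI complexes that space nucleosomes, was measured in the same series and serves below as a separate readout.

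Most CHD4 sites lay on a Brg1 site, while many Brg1 sites lay far from any CHD4 site. The counts on the 2 sides were close: 23880 Brg1 sites and 23819 CHD4 sites overlapped. They made up 46.1% of Brg1 sites (95% Wilson interval 45.7% to 46.5%) and 78.0% of CHD4 sites (77.6% to 78.5%), so the shares differ with the size of the sets. All Wilson intervals here cover counting error alone. Without a partner within 5 kb were 40.7% of Brg1 sites and 12.8% of CHD4 sites. Sites with a partner were broader and taller than those without. Brg1 sites had a median width of 1051 bp with CHD4 and 647 bp without it. Their median height was 44.0 with CHD4 and 19.7 without it in Brg1 replicate 1, and 22.6 and 7.27 in replicate 2. CHD4 sites were 1015 bp wide with Brg1 and 615 bp without it, with median heights of 17.3 against 11.8 in CHD4 replicate 1 and 11.9 against 6.18 in replicate 2. Heights are in the authors' units and are compared within a list. These shares moved with the libraries used. With 1 library left out, every merged hotspot of the other library of that antibody counted as a site. Both the definition of a site and the size of the set therefore changed. Leaving out Brg1 replicate 1 gave 11.9% of 259892 Brg1 sites with CHD4, and leaving out Brg1 replicate 2 gave 23.9% of 115307. Leaving out CHD4 replicate 1 gave 79.4% of Brg1 sites and 16.0% of 292957 CHD4 sites.

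**Figure D1:**
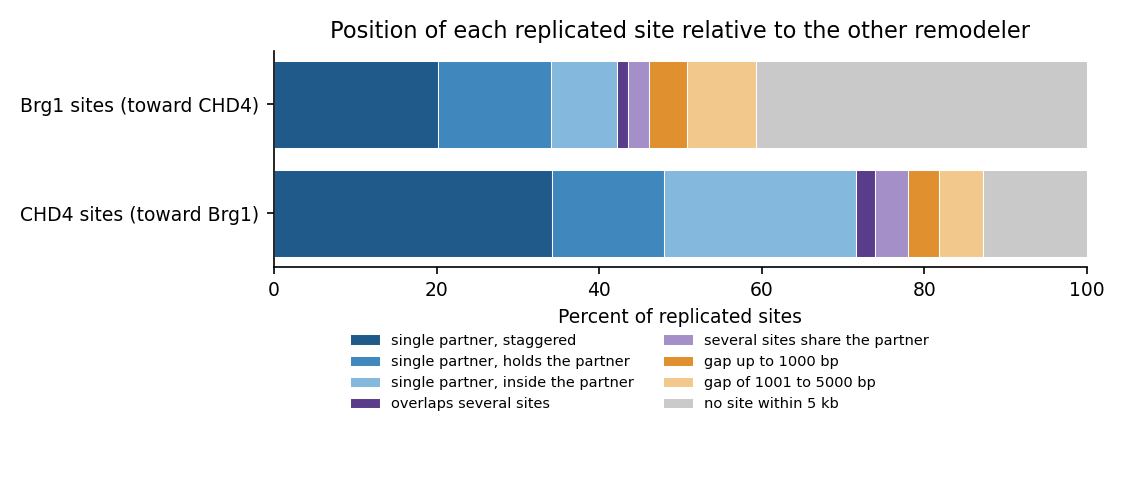
Percent of the 51805 Brg1 sites and 30521 CHD4 sites (horizontal axis) in each relation to the other remodeler (coloured segments), with the 5 identical pairs not drawn. Sites with a single partner fill most of the overlapping part of both bars, and the grey segment with no partner within 5 kb is 40.7% for Brg1 and 12.8% for CHD4.

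Where the remodelers overlapped, the relation was nearly always simple. Of 23135 shared regions, made by merging overlapping Brg1 and CHD4 sites, 21870 (94.5%) held 1 Brg1 site and 1 CHD4 site. Another 597 held several Brg1 sites and 1 CHD4 site, 545 held 1 Brg1 site and several CHD4 sites, and 123 held several of each. At most 4 Brg1 sites or 3 CHD4 sites fell in 1 region. Shared regions had a median width of 1238 bp and reached 8599 bp, and those with several sites of each had a median of 2883 bp. In the single-partner pairs the Brg1 and CHD4 sites had like median widths, 1043 and 1000 bp, and the median overlap covered 79.5% of the joint interval.

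The centres of paired Brg1 and CHD4 sites were close. Their median distance was 82.5 bp, the interquartile range was 34 to 179 bp, and 69.8% of pairs lay within 150 bp (69.1% to 70.4%), about the size of a nucleosome. The median signed distance was 0 bp. Distances over 500 bp occurred in 770 pairs (3.52%). The error of a midpoint was read from the libraries themselves, at the 16879 pairs with a single hotspot from each of the 4 libraries. Hotspot midpoints of Brg1 replicates 1 and 2 were a median of 74.5 bp apart there, and those of CHD4 replicates 1 and 2 were 98.5 bp apart. Between antibodies the medians were 75 bp for Brg1 replicate 1 with CHD4 replicate 1 and 78.5 bp for Brg1 replicate 2 with CHD4 replicate 2. For Brg1 replicate 1 with CHD4 replicate 2 the median was 95.5 bp, and for Brg1 replicate 2 with CHD4 replicate 1 it was 88 bp. Every between-antibody median thus lay inside the range set by the replicate pairs. The same-antibody pairs averaged 86.5 bp and the others 84.25 bp, but the order depended on which lists were compared. A same-antibody pair always joined a replicate 1 list to a longer replicate 2 list, and the between-antibody pairs built in that way averaged 91.75 bp, farther apart than replicates, while the same-numbered pairs averaged 76.75 bp. Among the 3 possible pairings of the 4 libraries, 2 gave a difference as low (one-sided exact permutation p = 0.667, where no p below 0.333 is possible). Over all single-partner pairs the same-antibody midpoints were 5.875 bp farther apart than the others on average. With CHD4 replicate 1 or 2 removed, only the Brg1 replicates were left as a same-antibody pair. They were closer than the others, by -14.0 and -3.75 bp. With Brg1 replicate 1 or 2 removed, only the CHD4 replicates were left, and they were farther apart, by 15.75 and 16.5 bp. By the medians, no offset between the remodelers was detectable. The tails differed at the 16879 pairs. Within 600 bp lay 99.56% of midpoints for Brg1 replicates and 99.02% for CHD4 replicates, against 97.7% to 98.9% between antibodies. With a single hotspot per library, the 2 replicate hotspots of a site overlap by definition, while Brg1 and CHD4 hotspots need not. Replicates are thus an unequal scale, and whether an offset exists cannot be decided from this comparison.

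**Figure D2:**
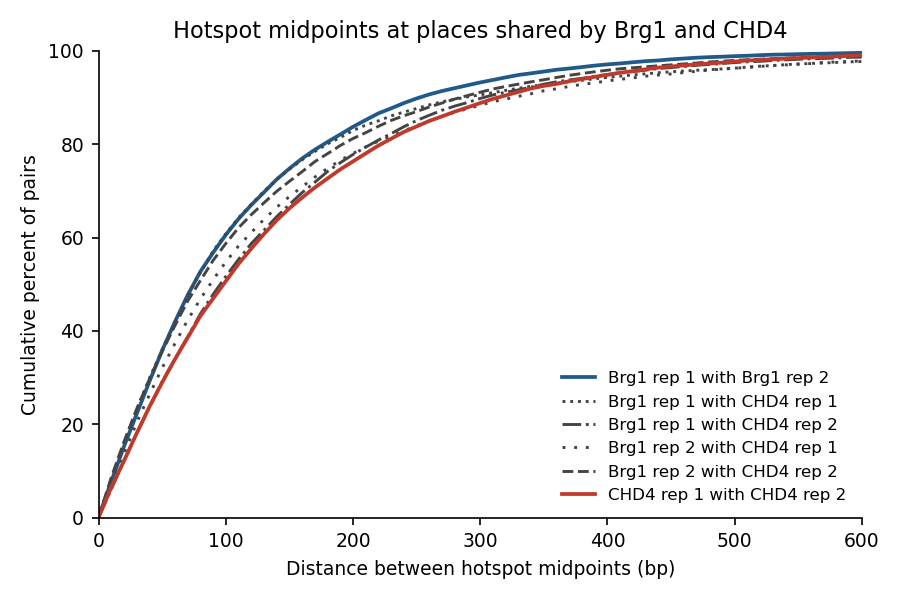
Cumulative percent of 16879 places (vertical axis) against the distance between hotspot midpoints in bp (horizontal axis), for each pair of the 4 libraries. The 6 curves lie close together, and the medians of the grey between-antibody curves fall between those of the Brg1 replicates (blue, 74.5 bp) and the CHD4 replicates (red, 98.5 bp).

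Distance grew with the width of the pair and changed little with its height. From the narrowest to the broadest quintile of joint width, the median rose from 34 bp to 198.5 bp, and the distance between Brg1 replicates rose alongside from 45.5 to 264 bp. The median was 85.5 bp in the lowest quintile of height and 77.75 bp in the highest. Midpoints of Brg1 replicates were 89.0 bp apart in the lowest and 92.0 bp in the highest.

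Nesting, in which 1 site lies wholly inside the other, was found in 52.2% of single-partner pairs (51.6% to 52.9%). CHD4 lay inside Brg1 in 7226 pairs (33.0%) and Brg1 lay inside CHD4 in 4188 (19.1%), while 10451 pairs (47.8%) were staggered. Nested pairs had a median centre distance of 52.0 bp and staggered pairs 120.5 bp. CHD4 sites inside a Brg1 site had a median within-list percentile of 75.6, and CHD4 sites holding a Brg1 site had 83.6. Brg1 sites ranked alike in both positions, at 89.9 inside and 90.2 outside. Percentiles run from 0 for the lowest hotspot of a list to 100 for the tallest, averaged over the 2 libraries. Which remodeler was outside moved with the libraries and widths used. Between single lists, 68.3% of pairs had CHD4 replicate 1 inside Brg1 replicate 2, and 45.1% had Brg1 replicate 1 inside CHD4 replicate 2. Lists of the same antibody nested in 66.7% of pairs for Brg1 and 62.5% for CHD4, within the 42.6% to 71.8% found between antibodies. Without Brg1 replicate 2 the order turned, with CHD4 inside in 2.36% of pairs and Brg1 inside in 68.6%. Without CHD4 replicate 2, CHD4 was inside in 76.5% and Brg1 in 1.78%. With every hotspot set to 500 bp the order also turned, to 14.8% and 19.8%, and 34.6% of pairs were nested.

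Some of the tallest nested pairs covered almost the same interval. On chromosome 6 a Brg1 site at 113430324 to 113431868 held a CHD4 site at 113430353 to 113431833. Heights there were 347 and 148 in Brg1 replicates 1 and 2 and 92.2 and 44.0 in CHD4 replicates 1 and 2. A second pair on chromosome 6, with Brg1 at 67052242 to 67053294 and CHD4 at 67052260 to 67053294, shared its right edge. The reverse case on chromosome 6 was broader, with Brg1 at 143588842 to 143589876 inside CHD4 at 143588068 to 143589967. That region held the tallest hotspot of Brg1 replicate 2, with heights of 465 and 258 for Brg1 and 104 and 51.1 for CHD4. On chromosome 11, Brg1 at 3057967 to 3058772 lay inside CHD4 at 3057885 to 3058972, with heights of 253 and 166 for Brg1 and 116 and 104 for CHD4.

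Sites that lay side by side without touching were a minority. Of the 27925 Brg1 sites that overlapped no CHD4 site, 2454 (8.79%, 8.46% to 9.13%) had a CHD4 site within 1 kb. Of the 6702 CHD4 sites that overlapped no Brg1 site, 1165 (17.4%, 16.5% to 18.3%) had a Brg1 site within 1 kb. For CHD4, removing Brg1 replicate 1 raised the share to 32.8%, and removing CHD4 replicate 1 lowered it to 8.29%. For Brg1, removing CHD4 replicate 1 gave 32.7%, while removing Brg1 replicate 1 or 2 gave 5.36% or 5.30%. The nearest site of the same antibody gives a scale for these shares. Another Brg1 site lay within 1 kb of 14.5% of the non-overlapping Brg1 sites and of 24.2% of the overlapping ones. For CHD4 these shares were 13.7% and 18.6%. Non-overlapping CHD4 sites thus had Brg1 nearby more often than another CHD4 site. Non-overlapping Brg1 sites had CHD4 nearby less often than another Brg1 site. Both differences went toward the larger set, 51805 Brg1 against 30521 CHD4 sites, so no spatial preference can be read from them. Neither difference was tested. The neighbour usually had a partner of its own: 80.5% of the CHD4 sites next to such a Brg1 site overlapped another Brg1 site, and 60.3% of the Brg1 sites next to such a CHD4 site overlapped another CHD4 site. Adjacency therefore mostly placed an additional site beside a shared region, and for 478 Brg1 sites neither member of the pair had an overlap.

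The tallest adjacent pairs of that last kind were not separate in every library. On chromosome 2 a Brg1 site at 167246238 to 167248328 lay 974 bp from a CHD4 site at 167244569 to 167245263. The Brg1 site had heights of 45.7 and 30.7 in the Brg1 libraries, no hotspot in CHD4 replicate 1 and one of 25.5 in CHD4 replicate 2. The CHD4 site had heights of 54.4 and 25.0 in the CHD4 libraries, no hotspot in Brg1 replicate 1 and one of 17.7 in Brg1 replicate 2. The pairs on chromosome 11 (Brg1 at 4156871 to 4158216, CHD4 at 4158546 to 4159288) and on chromosome 15 (Brg1 at 103135210 to 103136608, CHD4 at 103137272 to 103138040) had the same make-up, with the other remodeler in its longer list. Among all 2454 adjacent Brg1 sites, 77.1% had a hotspot in CHD4 replicate 2 and 3.42% one in CHD4 replicate 1.

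The same held for sites without a partner in general, since a site needs both libraries. Of the 27925 Brg1 sites without a CHD4 site, 17065 (61.1%) had a hotspot of CHD4 replicate 2 alone and 791 (2.83%) one of CHD4 replicate 1 alone. No CHD4 hotspot of either list was found at 9866 (35.3%, 34.8% to 35.9%), which is 19.0% of all Brg1 sites. Of the 6702 CHD4 sites without a Brg1 site, 4900 (73.1%) had a hotspot of Brg1 replicate 2 alone, 247 (3.69%) one of Brg1 replicate 1 alone and 1499 (22.4%, 21.4% to 23.4%) none. Replicate 2 was the longer list of both antibodies and reached down to a Z score of 2, against 9.49 in Brg1 replicate 1 and 8.77 in CHD4 replicate 1. The sites with no hotspot of the other remodeler were low. Their median heights were 13.9 and 3.795 for Brg1 in replicates 1 and 2, and 9.71 and 4.69 for CHD4.

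A tall site of either remodeler with no trace of the other was rare. In the top decile of height of Brg1 sites 96.4% overlapped a CHD4 site, and of the 185 that did not, 2 had no hotspot in either CHD4 list. In the top decile of height of CHD4 sites 97.4% overlapped a Brg1 site, and of the 78 that did not, 7 had no hotspot in either Brg1 list. In the lowest decile the shares were 2.72% for Brg1 and 37.4% for CHD4. The tallest Brg1 sites with no CHD4 hotspot were on chromosome 17 at 29622111 to 29623333 (heights of 86.3 and 58.8 in replicates 1 and 2), on chromosome 6 at 66977722 to 66978247 (86.3 and 34.9) and on chromosome 11 at 117166706 to 117167375 (77.0 and 37.6). They ranked between percentiles 95.1 and 98.9 of their lists. The tallest CHD4 sites with no Brg1 hotspot included 1 on chromosome 6 at 114876435 to 114877353, with heights of 40.2 and 26.2, and 1 on chromosome 18 with 38.1 and 36.6. The highest of them, on chromosome 16 at 11143893 to 11144415, stood at percentiles 99.8 and 99.97 of the CHD4 lists.

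Co-occupancy was next compared between sites of equal width and rank, since the sets differ in both. Sites were put in 5 classes of width and 5 of mean within-list percentile, and each of the 25 combinations was weighted by the smaller number of sites. CHD4 sites overlapped Brg1 in 77.2% and Brg1 sites overlapped CHD4 in 44.3%, a difference of 32.9 percentage points, against 31.9 before matching. CHD4 had the higher share in 25 of 25 combinations. Matching left the sets unequal in number, at 51805 Brg1 and 30521 CHD4 sites. With overlapping counts close on both sides, the larger set has the lower share. In each width class the gap was smallest in the highest rank class, where it ran from 5.64 to 14.98 points. Among sites of 958 to 1340 bp, CHD4 sites had Brg1 in 76.1% and Brg1 sites had CHD4 in 21.5% in the lowest rank class, and 97.5% and 91.3% in the highest. In the narrowest and lowest class the shares were 36.6% and 4.57%. A percentile does not mark the same depth in lists of unequal length, and the difference depended on the lists. With all 4 lists held to their 39797 tallest hotspots, the sets had 27291 Brg1 and 22395 CHD4 sites and the difference was 11.05 points, with CHD4 higher in 20 of 25 combinations. Leaving out Brg1 replicate 1 raised it to 62.9 points, and leaving out CHD4 replicate 2 gave 49.6. It was 17.6 points with Brg1 replicate 2 removed and turned to -31.6 points with CHD4 replicate 1 removed. In that last setting the CHD4 set held 292957 sites, more than the Brg1 set. The order of the remodelers in how often each was accompanied by the other thus depended on the lists used. In each of these settings the set with more sites had the lower share.

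**Figure D3:**
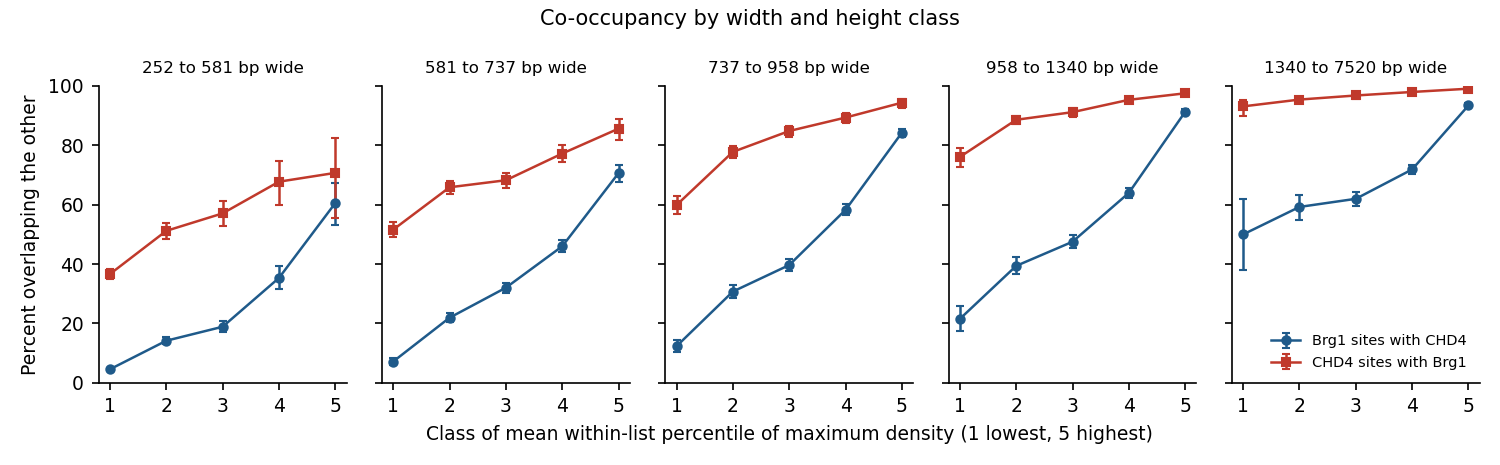
Percent of sites overlapping the other remodeler (vertical axis, with 95% Wilson intervals) in 5 classes of mean within-list percentile of height (horizontal axis), in 5 panels of site width. Red CHD4 points lie above blue Brg1 points in all 25 combinations of the full lists, and the distance closes to 5.64 percentage points in the broadest and tallest class.

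The overlap was also read at equal numbers of the tallest sites. Of the 1000 tallest Brg1 sites, 42.9% overlapped one of the 1000 tallest CHD4 sites, and 99.8% overlapped some CHD4 site. Of the 1000 tallest CHD4 sites, 97.8% overlapped some Brg1 site. For the 10000 tallest sites of each, 63.2% of Brg1 sites overlapped one of the CHD4 set and 90.1% overlapped any CHD4 site. Nearly all of the tallest sites were thus shared, while fewer were among the tallest of both.

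Height order at the 23135 shared regions showed the same partial agreement. Spearman's rho of height was 0.732 between Brg1 replicates and 0.700 between CHD4 replicates. Between antibodies it was 0.590 and 0.571 for Brg1 replicate 1 with CHD4 replicates 1 and 2, and 0.603 and 0.581 for Brg1 replicate 2. All between-antibody values lay below the same-antibody values, by 0.130 on average. Of the 3 possible pairings, that by antibody gave the largest difference (one-sided exact permutation p = 0.333, the smallest p that can be reached). With CHD4 replicate 1 removed, the Brg1 replicates were the only same-antibody pair left, and the difference was 0.0736. Regions are not independent replicates, and the values share library depth and mappability, so no p is given for a rho. In the top decile of height of shared regions of Brg1 replicate 1, 62.8% were also in that decile for Brg1 replicate 2, 49.2% for CHD4 replicate 1 and 43.2% for CHD4 replicate 2. Across all 4 libraries, 625 regions were in the top decile of height.

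Agreement hardly moved with how the sites were placed. Mean rho between antibodies was 0.583 where CHD4 lay inside Brg1, 0.599 where Brg1 lay inside CHD4 and 0.591 in staggered pairs. It was 0.594 in the quartile of pairs with the closest centres and 0.572 in the quartile with the farthest. By joint width it went from 0.492 in the narrowest quartile to 0.621 in the broadest, while rho between Brg1 replicates went from 0.682 to 0.750 and that between CHD4 replicates from 0.629 to 0.728.

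Some shared regions leaned to 1 remodeler in both of its libraries. Heights were turned into percentiles over the 23135 shared regions in each library. Both Brg1 percentiles exceeded both CHD4 percentiles at 5230 regions (22.6%), and both CHD4 percentiles exceeded both Brg1 percentiles at 5134 (22.2%). The other ways to set 2 of the 4 libraries above the remaining 2 each held 13.1% to 14.7% of regions. A lean of more than 25 percentile points was found toward Brg1 at 728 regions (3.15%) and toward CHD4 at 1020 (4.41%).

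The regions with the strongest lean to Brg1 were on chromosomes 9 and 7. At chromosome 9, 14408674 to 14409348, heights were 90.3 and 40.5 in the Brg1 libraries and 9.71 and 2.72 in the CHD4 libraries, at percentiles 83.6 and 75.6 against 9.09 and 0.746. At chromosome 9, 107165974 to 107166879, heights were 112 and 58.2 for Brg1 and 12.5 and 4.94 for CHD4. The third was on chromosome 7 at 103965359 to 103966282, with 111 and 54.2 for Brg1 and 12.1 and 7.66 for CHD4. The strongest lean to CHD4 was on chromosome 8 at 3516239 to 3517420, where heights were 14.5 and 10.9 for Brg1 and 58.2 and 27.4 for CHD4, at percentiles 5.32 and 3.66 against 99.04 and 95.2. A broad region on chromosome 14 at 51707822 to 51710597 had 18.5 and 9.17 for Brg1 and 42.6 and 34.6 for CHD4. Another on chromosome 18 had 13.3 and 9.17 for Brg1 and 53.0 and 27.4 for CHD4. These are the extremes by the naming rule and stand for no class.

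**Figure D4:**
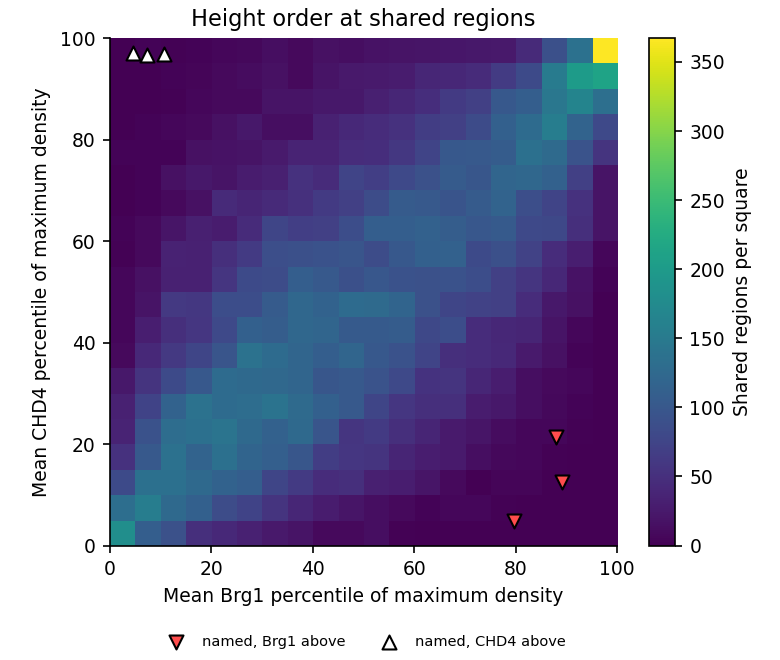
Number of shared regions (colour) by mean Brg1 percentile (horizontal axis) and mean CHD4 percentile (vertical axis) of height over the 23135 shared regions. Regions crowd along the diagonal and most densely at the top right, and triangles mark the 3 named regions that lean most to each remodeler.

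At the other end were regions tall for both. The tallest 5 by mean within-list percentile were on chromosome 11 (3064327 to 3066133 and 3061015 to 3061850), chromosome 6 (143588068 to 143589967 and 113430324 to 113431868) and chromosome 8 (20019637 to 20020624). All ranked above percentile 99.9 in each of the 4 lists. At chromosome 11, 3061015 to 3061850, heights were 270 and 154 for Brg1 and 104 and 98.6 for CHD4.

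Snf2h, which played no part in choosing these sites, was distributed unevenly over them. A replicated Snf2h site overlapped 61.3% (60.0% to 62.6%) of the shared regions that leaned to CHD4 and 31.0% (29.7% to 32.2%) of those that leaned to Brg1. Regions with neither lean had 41.7%. The order was the same in each Snf2h library: hotspots of replicate 1 were at 63.5% and 35.6%, and those of replicate 2 at 91.2% and 79.4%. The median widths of the classes were 1283 bp for CHD4 and 1170 bp for Brg1. That order also held in every class of mean percentile, cut at 25, 50 and 75. It was 46.3% against 21.3% in the lowest and 67.1% against 47.1% in the highest. With a lean of more than 25 points the shares were 76.7% and 21.3%. The difference of 30.3 points stayed positive when each Brg1 or CHD4 library was left out, between 14.9 without Brg1 replicate 2 and 25.6 without Brg1 replicate 1, and was 15.4 without CHD4 replicate 1. It was not tested over samples.

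**Figure D5:**
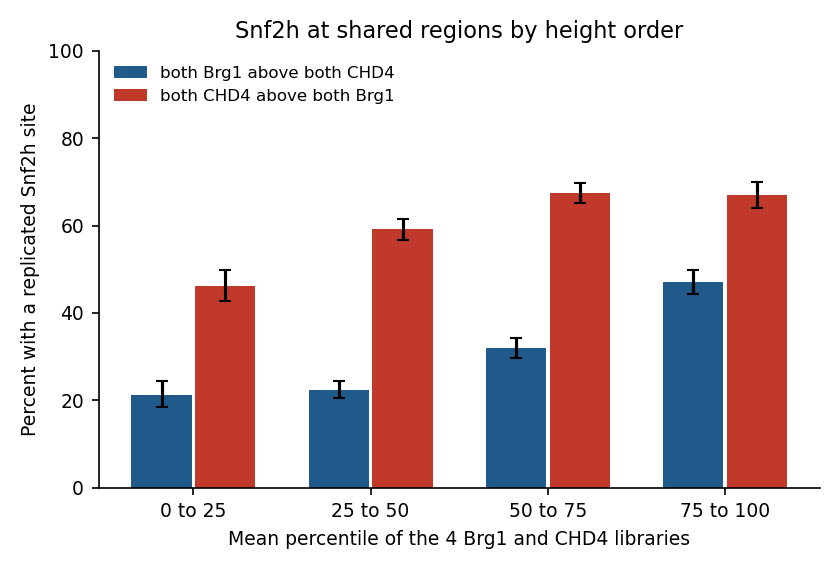
Percent of shared regions with a replicated Snf2h site (vertical axis, bars with 95% Wilson intervals) by class of mean percentile over the 4 Brg1 and CHD4 libraries (horizontal axis). Classes are cut at percentiles 25, 50 and 75 and differ in size. In each class the red bar, for regions where both CHD4 libraries ranked above both Brg1 libraries, is above the blue bar for the reverse order. The shares are 46.3% against 21.3% in the lowest class and 67.1% against 47.1% in the highest.

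Presence of the partner was related to Snf2h on the Brg1 side. With Brg1 sites matched for width and rank, Snf2h sites were found at 38.6% of those with CHD4 and 11.5% of those without. Before matching the shares were 42.7% and 7.71%. The matched difference of 27.1 points was 27.95 for hotspots of Snf2h replicate 1 and 27.7 for replicate 2, and 10.9 without CHD4 replicate 1. Among CHD4 sites matched in the same way, Snf2h was found at 29.9% of those with Brg1 and 33.2% of those without, a difference of -3.33 points. That difference had no stable sign. It was -3.79 for hotspots of Snf2h replicate 1 and 6.80 for those of replicate 2. Removing Brg1 replicate 1 gave 7.69 points, removing CHD4 replicate 1 gave 15.2 and removing CHD4 replicate 2 gave 3.51. The contrast between the 2 sides was not tested.

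Along the genome the relation varied somewhat between autosomes. The share of Brg1 sites with CHD4 ran from 43.1% on chromosome 18 (40.7% to 45.6%) to 49.4% on chromosome 11 (47.8% to 51.1%). The share of CHD4 sites with Brg1 ran from 75.7% on chromosome 13 (73.4% to 77.8%) to 80.6% on chromosome 11 (78.8% to 82.2%). Mean rho between antibodies at shared regions ran from 0.502 on chromosome 7 to 0.647 on chromosome 16. On X, 44.0% of 1158 Brg1 sites had CHD4. Of 781 CHD4 sites on X, 67.0% had Brg1 (63.6% to 70.2%), below every autosome. Autosomal CHD4 sites weighted to the widths and ranks of those on X had Brg1 in 66.2%, against 78.3% unweighted. The difference between X and these weighted autosomal sites was 0.762 points. Removing Brg1 replicate 1 or 2 gave -0.769 or -0.263 points. With lists of equal length it was -13.1 points over 301 sites on X. At the 496 shared regions on X, mean rho between antibodies was 0.472, below every autosome. The median centre distance on X was 98.5 bp, above every autosome. Neither value was matched for width or rank.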

How the data were processed

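Hotspot lists were deposited for each library. Brg1, CHD4 and Snf2h lists (2 each) were used, and the inputs were not analysed here. Maximum and average tag density per hotspot (a signal), the Z score and the p-value are values the authors deposited; the Z score served to shorten lists to a common minimum, and the p-values were not used further. The submitters' processing notes name mm9 and CASAVA 1.6, with no roles. The protocol text on extraction belongs to another assay. Hotspot caller, thresholds, density scaling and input use were not given in the sources used here. Samples were grouped by antibody from the labels.

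Sites, shared regions, distances, nesting, gaps, percentiles, matched shares (5 by 5 classes) and Spearman's rho were computed in pandas 2.3.3, numpy 2.4.6 and scipy 1.17.1 (Python 3.11.15), and the code was tested on simulated data. Differences between library pairs were set against all 3 splits of 4 libraries by an exact permutation test. Shares have 95% Wilson intervals. Alternatives left out each library, equalised list lengths, used a common Z score, another overlap, 500 bp hotspots, other gaps or classes, average density, or no tallest 1%.

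Regions were named by rule: the 5 tallest shared regions, the 3 with the largest lean to each remodeler, the 3 tallest sites of each with no hotspot of the other, the 3 highest adjacent pairs (taken where neither site had an overlap), and the 2 highest nested pairs in each direction. The members, lists and rules were chosen with earlier results of these data known. Planned promoter and motif counts were not run because an mm9 reference was not used here.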

Additional observations from a re-analysis of the deposited data

How the results depend on the processing

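Among removals of 1 library, shares of sites with a partner or an adjacent site moved most when a replicate 1 list was left out. Nesting moved most without a replicate 2 list, to 70.9% without that of Brg1 and 78.3% without that of CHD4. Tag numbers are unknown, so depth limits cannot be stated. Where a value moved, the cause was not tested. A planned value counts as moved when it shifted by more than the SD over the 4 pairs of single libraries. The same-antibody excess in rho was judged by its sign alone. The further results below were set against the SD over the 4 removals of 1 library. With 1 library left out, every merged hotspot of the other library of that antibody counted as a site, so set sizes changed too. Leaving out 1 library gave 11.9% to 79.4% of Brg1 sites with CHD4 and 16.0% to 94.3% of CHD4 sites with Brg1. It gave median centre distances of 73.5 to 99.5 bp, nesting of 51.9% to 78.3%, and adjacency within 1 kb of 5.30% to 32.7% for Brg1 and 8.29% to 32.8% for CHD4. The matched difference ran from -31.6 points (without CHD4 replicate 1) to 62.9, rho between antibodies from 0.587 to 0.670, and the same-antibody excess in rho from 0.0736 to 0.128. With 1 library left out, that excess rests on the replicate pair of 1 antibody.

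Lists of equal length gave 62.1% of Brg1 sites with CHD4 and a rho of 0.493. The rank correlation between antibodies was 0.463 without the tallest 1% and 0.484 by average density. Hotspots of 500 bp gave 34.6% nesting, and a gap of 5 kb gave adjacency of 24.6% for Brg1 and 41.7% for CHD4. A common Z score and an overlap of 50% moved none of the planned results by the SD rule, but that SD was wide for some. The overlap of 50% could not change adjacency for either remodeler, because adjacent sites share no base by definition. With a common Z score, CHD4 sites with Brg1 went from 78.0% to 87.2%, against an SD of 30.6 points. The matched difference went from 32.9 to 43.1 points, against an SD of 44.1 points.

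Alternatives for 6 further results were chosen after seeing the data. CHD4-inside minus Brg1-inside turned from 13.9 points to -66.2 without Brg1 replicate 2 and -5.06 with 500 bp hotspots. The Snf2h difference at CHD4 sites turned from -3.33 points to 7.69, 15.2 and 3.51 without Brg1 replicate 1, CHD4 replicate 1 and CHD4 replicate 2. Same-minus-between midpoint distance turned from 5.875 bp to -14.0 and -3.75 without CHD4 replicates 1 and 2, where only the Brg1 replicates were left as a same-antibody pair. The difference between X and matched autosomes turned from 0.762 points to -0.769 and -0.263 without Brg1 replicates 1 and 2, and -13.1 with lists of equal length. The Snf2h differences at Brg1 sites and by lean kept their direction in all 8 alternatives, but both moved in size. By lean it fell from 30.3 points to 14.9, 15.4 and 22.7 without Brg1 replicate 2, CHD4 replicate 1 and CHD4 replicate 2 (SD 5.31 points). At Brg1 sites it fell from 27.1 points to 10.9 without CHD4 replicate 1 (SD 9.37 points). Over the removal of single libraries the differences that turned ran from -66.2 to 74.7 points for nesting and -2.48 to 15.2 points for Snf2h at CHD4 sites. They ran from -14.0 to 16.5 bp for midpoints and -0.769 to 1.83 points for X.

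The labels give a replicate number but no shared batch. With the number as a replicate block, using library pairs of the same number, rho was 0.586 and the same-antibody excess 0.131. Hotspot midpoints of same-numbered libraries of different antibodies were 75 and 78.5 bp apart, and those of differently numbered libraries 95.5 and 88 bp.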

Other observations

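Counts of Brg1 and CHD4 sites per megabase ran together over 2506 megabases, with a Spearman's rho of 0.948, given as a description since neighbouring megabases and mappability are shared. Hotspot counts of single libraries ran together less closely. Their rho was 0.764 between Brg1 replicates and 0.636 between CHD4 replicates. Between antibodies it was 0.793 for the replicate 1 lists and 0.872 for the replicate 2 lists, above both same-antibody values, and 0.714 and 0.660 for lists of different number. In the 884 megabases with at least 40 sites, a minimum chosen with the data in view, Brg1 made up a median of 61.8% of the sites of both, and 62.9% over the genome. The megabases at the ends of that range were picked for their values. On chromosome 13 from 23000000 to 23999999 there were 27 Brg1 and 37 CHD4 sites, and from 21000000 to 21999999 on the same chromosome 29 and 34. On chromosome 14 from 54000000 to 54999999 there were 19 and 24. At the other end, chromosome 7 from 150000000 to 150999999 had 46 Brg1 and 13 CHD4 sites, chromosome 6 from 99000000 to 99999999 had 41 and 13, and chromosome 13 from 100000000 to 100999999 had 37 and 12.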
